A study of Mus musculus with 207 samples.

Results

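The genes described here encode the subunits of the mitochondrial respiratory chain that are made from nuclear DNA. They were taken by symbol: every protein-coding gene whose symbol begins with Ndufa, Ndufb, Ndufc, Ndufs, Ndufv, Uqcr, Cox4i, Cox5, Cox6, Cox7, Cox8 or Atp5, together with Sdha, Sdhb, Sdhc, Sdhd and Cyc1, with the Ndufaf assembly factors left out. This gave 87 genes of 55536 in the jejunum and liver tables and of 21883 in the hypothalamus table. Complex I contributed 36 genes, complex II 4, complex III 9, complex IV 20 and complex V, the ATP synthase, 18. Ndufa4 and Ndufa4l2 were counted with complex IV. The symbols, not any measured value, decided membership.

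Bulk RNA-seq libraries came from the jejunum (70), liver (70) and hypothalamus (67) of C57BL/6 mice. Each mouse received 1 of 6 diets, which combined a protein source labelled CAS or WPI, both at level 30, with fat at level 20, 40 or 55. The labels do not spell out CAS or WPI and give no unit for the levels, no sex and no age. The jejunum and the liver each had 11 libraries on CAS FAT-20, 12 on CAS FAT-40, 11 on CAS FAT-55 and 12 on each WPI diet. The hypothalamus had 10, 12 and 11 libraries on CAS and 11, 11 and 12 on WPI, in the same order of fat. The mouse identifiers share stems, 24 in each tissue, and the labels do not say what a shared stem marks, so p-values measure the spread between these libraries. No group was untreated, and the lowest fat level on the same protein served as the reference.

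The respiratory chain passes electrons from NADH and succinate to oxygen and pumps protons across the inner mitochondrial membrane, and ATP synthase uses that proton gradient to make ATP. Complex I takes electrons from NADH, complex II from succinate, complex III passes them from ubiquinol to cytochrome c, and complex IV hands them to oxygen. Most subunits are encoded in the nucleus and must match the few core subunits encoded in mitochondrial DNA. Nuclear respiratory factors such as NRF1, the ETS factor GABPA and the estrogen-related receptors are known regulators of these genes. Enterocytes, hepatocytes and neurons all depend on the chain for ATP, and in enterocytes and hepatocytes it also takes up electrons from fatty acid oxidation.

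The sequence just before the gene start was available for 67 of the 87 genes, as RefSeq windows of 250 bases on GRCm38.p6. The palindromic NRF1 motif, GCGCA and GCGC with any base between them, was found on either strand in 12 of the 67 windows (17.9%), against 3.74% of all 32851 windows in the same table and 5.48% of the 16522 windows of protein-coding genes. The GABPA core CCGGAAGT was found in 3 (4.48%, against 2.88% of all windows and 4.02% of protein-coding ones), the estrogen-related receptor motif TCAAGGTCA in 1 (1.49%, against 0.387% and 0.321%) and the YY1 motif AAGATGGC in 0 (against 1.56% and 1.51%). A match describes letters only. The stretches below are those of Cox7a1, which had the largest called rise on CAS FAT-55 in jejunum, and of subunits of complexes I, II, IV and V that hold NRF1 letters. Each is read 5′ to 3′ on the gene's strand and ends where the GENCODE gene model begins, and capitals mark matches. Cox7a1 lies at chr7:30183921-30184143 on the plus strand and has no match. The others are on the minus strand: Ndufb4 at chr16:37654454-37654618, Sdha at chr13:74350281-74350490, Cox6a1 at chr5:115348982-115349208 and Atp5h at chr11:115419963-115420169.
Cox7a1: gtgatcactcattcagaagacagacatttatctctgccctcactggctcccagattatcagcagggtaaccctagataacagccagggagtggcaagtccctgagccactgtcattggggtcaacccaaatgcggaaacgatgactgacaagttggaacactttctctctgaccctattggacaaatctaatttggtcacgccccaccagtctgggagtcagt
Ndufb4: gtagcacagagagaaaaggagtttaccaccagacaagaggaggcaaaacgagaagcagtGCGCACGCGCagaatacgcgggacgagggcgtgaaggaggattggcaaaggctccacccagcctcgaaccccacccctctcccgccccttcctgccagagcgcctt
Sdha: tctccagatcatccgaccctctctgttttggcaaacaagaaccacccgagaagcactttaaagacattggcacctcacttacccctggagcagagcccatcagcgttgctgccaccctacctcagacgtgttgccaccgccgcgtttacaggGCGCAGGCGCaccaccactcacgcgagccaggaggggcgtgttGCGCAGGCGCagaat
Cox6a1: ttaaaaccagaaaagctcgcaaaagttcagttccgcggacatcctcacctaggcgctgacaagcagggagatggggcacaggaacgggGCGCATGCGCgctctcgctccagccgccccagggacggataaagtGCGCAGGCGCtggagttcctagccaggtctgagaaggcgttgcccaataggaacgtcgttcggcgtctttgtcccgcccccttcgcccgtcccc
Atp5h: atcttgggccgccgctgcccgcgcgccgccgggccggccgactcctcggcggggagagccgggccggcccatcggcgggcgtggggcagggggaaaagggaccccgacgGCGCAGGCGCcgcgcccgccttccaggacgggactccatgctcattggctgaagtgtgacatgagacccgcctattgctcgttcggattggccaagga

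The full 250-base windows of Ndufb4 and Sdha hold 3 NRF1 matches each, of which 1 and 2 lie before the gene model and are shown. The Cox6a1 window holds 2 and the Atp5h window 1, with a GABPA core nearer the start that falls inside the gene model. In the comparison with most called subunits, FAT-55 against FAT-20 on CAS in jejunum, 11 of 12 tested genes with NRF1 letters and 50 of 53 without them rose, with median log2 fold changes of 0.28 and 0.27. The medians were alike; the comparison was not tested.

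Depth was 17502377 to 23808051 gene-assigned reads per library in jejunum, 21000799 to 41024101 in liver and 14397474 to 16134800 in hypothalamus. The labelled tissues carried their markers: all 12 enterocyte, all 8 hepatocyte and all 11 hypothalamic neuron markers averaged at least 1 CPM (counts scaled to a common library size) in their own tissue. Of the 87 genes, 83 passed the filter on low values and were tested in jejunum, 81 in liver and 83 in hypothalamus. Cox7b2, Cox8b, Cox8c and the second gene annotated as Atp5o were not tested anywhere, and Cox4i2 and Cox6a2 were not tested in liver. Of the 207 libraries, 13 stood apart, because their other short transcripts (protein-coding genes with under 1500 exonic bases that are not among the subunits) had a median more than 0.35 log2 units above their level in the middle library of that tissue. They were 1 jejunum library (CAS FAT-55), 1 liver library (WPI FAT-55) and 11 hypothalamus libraries, of which 4 were CAS FAT-20, 5 WPI FAT-20 and 2 WPI FAT-55. Many counts of called subunits that rest on them are given with and without them, but not all. Counts by DESeq2, and by edgeR in hypothalamus, were made only with all libraries.

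Subunit mRNAs were most abundant in jejunum. They took a median of 1.65% of the reads per library there (1.39% to 2.23% over 70 libraries), 0.971% in liver (0.834% to 1.30% over 70) and 0.979% in hypothalamus (0.837% to 3.06% over 67). Per kilobase of principal transcript, the median tested subunit had 137 CPM in jejunum, 83.7 in liver and 109 in hypothalamus. Atp5b, the catalytic beta subunit of ATP synthase, had the highest level per kilobase in all 3 tissues, at 1111, 594 and 710 CPM.

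The complexes differed in level within a tissue. Complex I subunits had the lowest median per kilobase in jejunum (80.05 CPM, against 241, 222, 279 and 223 for complexes II, III, IV and V), in liver (50.5, against 153, 136, 135 and 140) and in hypothalamus (86.2, against 129, 121, 173 and 134). The lowest complex I value in every tissue was that of Ndufb2, an accessory membrane-arm subunit, at 1.21, 0.682 and 3.36 CPM per kilobase. Its principal transcript is 4371 bases long, the length by which its reads were divided. The order of the subunits by level was much alike between tissues, with Spearman's rho across 81 genes of 0.94 for jejunum and liver, 0.80 for jejunum and hypothalamus and 0.86 for liver and hypothalamus. These are correlations across genes, which are not independent replicates.

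**Figure D1:**
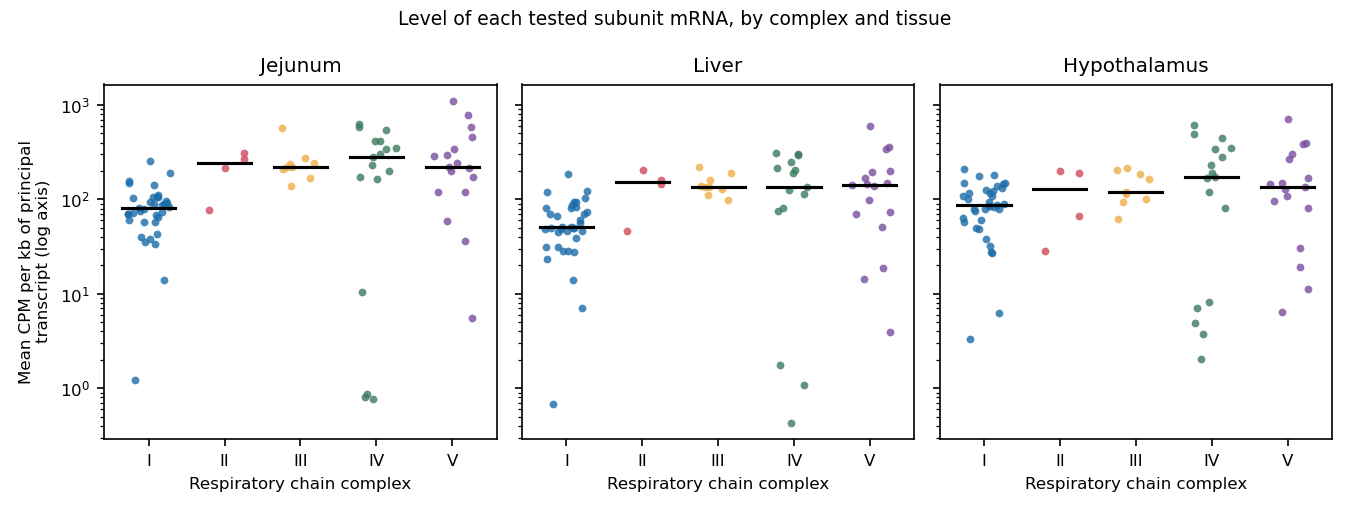
Mean level of each tested subunit mRNA (points, CPM per kilobase of principal transcript, log axis) by complex, with the median of each complex as a line. Complex I has the lowest median in each tissue, and single complex IV and V subunits lie far below their complex.

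Tissue forms of complex IV subunits had the largest ratios between tissues. The median subunit was 1.71 times as abundant per kilobase in jejunum as in liver, and 1.34 times in hypothalamus as in liver. Cox7a1, the form of subunit 7a known from heart, skeletal muscle and brown fat, reached 171 CPM per kilobase in jejunum and 1.76 in liver, a ratio of 97.6. It made up a median of 42.4% of Cox7a1 plus Cox7a2 per kilobase in jejunum (29.2% to 49.3% over 70 libraries), 1.51% in liver and 3.23% in hypothalamus. Cox6b2, known from testis, was 24.2 times as abundant in jejunum and 16.6 times in hypothalamus as in liver, but took only 2.29%, 0.153% and 3.37% of its pair with Cox6b1 in jejunum, liver and hypothalamus. The muscle form Cox6a2 was at most a minor form, with medians of 0.130%, 0.015% and 1.26%. Striated muscle markers summed to 1.42 to 11.7 CPM in every jejunum library, with Pvalb at 0 and 2 of 8 markers averaging 1 CPM or more. The c-ring of ATP synthase is encoded by Atp5g1, Atp5g2 and Atp5g3 for the same mature protein. Their mRNA per kilobase was mainly that of Atp5g3 in all tissues, at 83.5%, 79.7% and 73.8%. Atp5g1 reads were divided by a principal transcript of 4715 bases, against 731 for Atp5g2 and 723 for Atp5g3. In plain CPM Atp5g3 was also the highest, at 572, 250 and 282, and Atp5g1 had 170, 88.9 and 144.

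Dietary fat and the subunit mRNAs of the jejunum were compared within each protein source. More fat went with higher subunit mRNA in all complexes, and the rise was broadest at FAT-55 on CAS. There 74 of 83 tested subunits rose and 0 fell by edgeR's quasi-likelihood test at an adjusted p below 0.05 (Benjamini-Hochberg, adjusted across the 16992 genes tested), where 27.7% of all genes were called in either direction and 14.4% rose. The rises were small, with a median log2 fold change of 0.27 against -0.01 for all genes, and 82 of 83 subunits had a positive value. By complex, 34 of 36 rose in complex I, 4 of 4 in II, 9 of 9 in III, 13 of 17 in IV and 14 of 17 in V. In bulk tissue, more cells of a type and more RNA per cell cannot be told apart.

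FAT-55 on WPI raised 32 of 83 subunits and lowered 0 (30.8% of all genes called, 14.2% higher), with a median of 0.16 against -0.03 for all genes. The 32 were 8 subunits of complex I, 3 of II, 5 of III, 10 of IV and 6 of V. FAT-40 raised 24 on CAS (25.1% of all genes called, 12.7% higher; median 0.15) and 16 on WPI (25.8% and 12.7%; median 0.13), with 0 lower in either. Of the subunits called at FAT-55, 30 were called on both proteins and all 30 rose, which is 40.5% of those called on CAS and 93.8% of those called on WPI. Cox6a2 and Cox6b2 were the pair called on WPI alone. The difference of the FAT-55 response between the proteins was called for 0 of 83 (0% of all genes) by edgeR, with 6 lower at unadjusted p under 0.05, and DESeq2 called 0. A p that misses the threshold does not show that the proteins act alike.

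**Figure D2:**
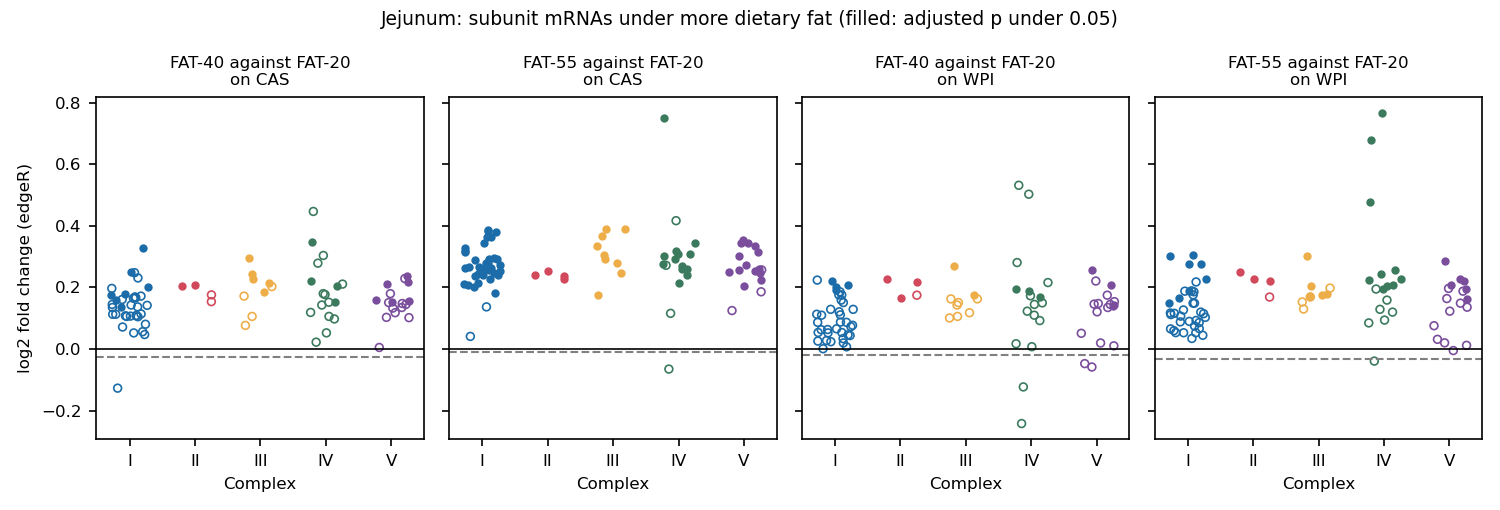
Log2 fold change of each subunit mRNA in jejunum for FAT-40 and FAT-55 against FAT-20 on each protein, by complex, with filled points for adjusted p under 0.05 and a dashed line at the median of all genes. Most points lie above 0 in each panel, and the filled points number 24, 74, 16 and 32 from left to right.

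The largest called rise on CAS FAT-55 was that of Cox7a1 (GRCm38 chr7:30184144-30186078, plus strand). Its level was 33.7, 49.3 and 71.4 CPM (lowest, median and highest library) on CAS FAT-20, 54.3, 64.2 and 70.4 on CAS FAT-40, and 50.04, 85.1 and 119.9 on CAS FAT-55. On WPI the corresponding values were 45.4, 55.8 and 73.0 at FAT-20, 45.8, 65.2 and 131.4 at FAT-40, and 69.5, 77.1 and 110.1 at FAT-55. The median climbed with each step of fat on both proteins, and every FAT-55 library lay above the FAT-20 median of its protein, though the ranges overlapped. The log2 fold change at FAT-55 was 0.75 on CAS (SE 0.119, adjusted p = 4.62e-06) and 0.48 on WPI (SE 0.113, adjusted p = 0.000797). Its share of the Cox7a pair per kilobase rose in median from 36.8% to 44.3% on CAS and from 40.1% to 45.8% on WPI.

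Within complex I, the accessory subunits Ndufb3 and Ndufb4 rose at FAT-55 on both proteins. Ndufb4 had 23.6, 31.0 and 39.8 CPM on CAS FAT-20 and 34.8, 39.96 and 49.98 on CAS FAT-55, and 27.5, 32.9 and 40.1 on WPI FAT-20 and 36.3, 39.7 and 46.4 on WPI FAT-55. Every FAT-55 library was above the FAT-20 median of its protein, and the ranges overlapped. Its log2 fold change was 0.35 (SE 0.0726, adjusted p = 0.000303) on CAS and 0.28 (SE 0.0695, adjusted p = 0.00163) on WPI, and FAT-40 gave 0.25 and 0.20. Ndufb3 changed by 0.38 and 0.28 at FAT-55. Of complex I, only Ndufb2 and Ndufc2 were not called on CAS FAT-55.

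Complex II, which is also an enzyme of the tricarboxylic acid cycle, rose whole on CAS FAT-55: its 4 subunits changed by 0.23 to 0.25 and all were called. Sdha, the flavoprotein that oxidises succinate, had 487, 566 and 642 CPM on CAS FAT-20, 599, 647 and 716 on CAS FAT-40 and 531, 689 and 793 on CAS FAT-55. The medians were ordered by fat, and 9 of 11 FAT-55 libraries exceeded the FAT-20 median. Sdha rose by 0.25 on CAS (SE 0.0624, adjusted p = 0.00177) and by 0.23 on WPI (SE 0.0597, adjusted p = 0.00257).

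In complex III, the Rieske iron-sulfur protein Uqcrfs1 rose by 0.37 on CAS and 0.30 on WPI at FAT-55, and cytochrome c1 (Cyc1) by 0.31 and 0.17. The small subunits Uqcr10 and Uqcr11 rose by 0.39 each on CAS. On WPI, Uqcr10 rose by 0.21, and Uqcr11 had a value of 0.20 that missed the threshold (edgeR adjusted p = 0.0543). Cyc1 had 264, 323 and 377 CPM on CAS FAT-20 and 291, 427 and 456 on CAS FAT-55, so 9 of 11 FAT-55 libraries exceeded the FAT-20 median while the ranges overlapped.

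Among common complex IV subunits, Cox5a rose by 0.31 on CAS and 0.26 on WPI and Cox6b1 by 0.31 and 0.20. The rare forms Cox6b2 and Cox6a2 were called on WPI, by 0.68 (adjusted p = 0.0103) and 0.77 (adjusted p = 0.0158), and had 0.27 and 0.42 on CAS, neither called. Cox6a2 is present at 0.328 CPM in the median WPI FAT-20 library and 0.647 in the median WPI FAT-55 library, near the limit of detection. In ATP synthase, the peripheral-stalk subunit Atp5f1 rose by 0.30 on CAS and 0.29 on WPI, and Atp5a1, the alpha subunit, by 0.25 and 0.20. Atp5b rose by 0.21 on CAS and had 0.12 on WPI (adjusted p = 0.0732). The subunits not called on CAS FAT-55 outside complex I were Cox4i2, Cox6a2, Cox6b2, Ndufa4l2, Atp5g2, Atp5mpl and Atp5s.

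Other cell types moved with fat in the same jejunum samples. The 10 smooth muscle markers summed to a median of 1305 CPM on CAS FAT-20 (929 to 1719), 620 at FAT-40 (489 to 951) and 806 at FAT-55 (394 to 1364), and on WPI to 1479 (880 to 4271), 687 (409 to 1240) and 613 (351 to 1427). The 12 enterocyte markers summed to 37637, 45363 and 44792 CPM on CAS and 44734, 48788 and 48883 on WPI. The 7 fat cell markers had medians of 98.3, 85.1 and 92.8 CPM on CAS and 125, 95.6 and 109 on WPI, with up to 319 and 427 in single FAT-20 libraries. With the fat cell and smooth muscle scores as covariates, 7 subunits remained called on CAS FAT-55 (Uqcr10, Uqcr11, Ndufb3, Ndufs8, Ndufv3, Cox7a2l and Cox7a1) and 0 in the other fat comparisons, with medians of 0.23, 0.08, 0.09 and 0.05 for CAS FAT-55, WPI FAT-55, CAS FAT-40 and WPI FAT-40 and 5.99%, 1.6%, 0.906% and 0.253% of all genes called. Cox7a1 then had 0.62 on CAS FAT-55 (edgeR adjusted p = 0.00941). Without the CAS FAT-55 library that stood apart, 61 subunits rose on CAS FAT-55 (28.1% of all genes called) and 39 on WPI FAT-55 (32.1%), and Cox7a1 rose by 0.68 on CAS FAT-55. When mice with a shared identifier stem were summed, 60, 15, 2 and 1 subunits were called in the same order (17.1%, 17.2%, 10.7% and 10.5% of all genes).

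Other mitochondrial genes were counted in the same jejunum comparison, with all libraries. At FAT-55 on CAS, 21 of 44 assembly factors, 9 of 13 tricarboxylic acid cycle genes, 8 of 16 electron-carrier genes, 8 of 20 import and quality-control genes and 29 of 77 mitochondrial ribosomal protein genes rose, and 0 of each fell, where 14.4% of all genes rose. Of 9 nucleotide, phosphate and proton carriers, 5 rose and 2 fell: Ckmt1, mitochondrial creatine kinase, rose by 0.44 and the phosphate carrier Slc25a3 by 0.33, while the adenine nucleotide carrier Slc25a4 fell by 0.48 and the uncoupling protein Ucp3 by 1.68 (both named after their values were seen). Of 16 regulators of mitochondrial biogenesis, 2 rose and 1 fell (27.7% of all genes called); Ppara, the nuclear receptor that switches on fatty acid oxidation, rose by 0.74 and Gabpa, an ETS factor, by 0.20. Mdh2, mitochondrial malate dehydrogenase, rose by 0.62 and Coq4 of ubiquinone synthesis by 0.68. Of 13 mitochondrially encoded mRNAs, only mt-Co3 (0.36) was called, although the median of the 13 was 0.27, like that of the nuclear subunits.

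Protein source had little measured effect on the jejunum subunits. Averaged over fat, WPI against CAS raised 2 of 83 and lowered 0 (15.3% of all genes called, 6.5% higher). They were Ndufa6, an accessory complex I subunit, at 0.18 (SE 0.0387, edgeR adjusted p = 0.000665), and Cox7a2l, counted with complex IV, at 0.09 (SE 0.0325, adjusted p = 0.0373). Ndufa6 was also the only subunit called at FAT-20 (1 of 83; 6.23% of all genes called, 2.66% higher), where it had 111, 121 and 163 CPM on CAS and 127, 151 and 188 on WPI, with overlapping ranges. At FAT-40 and FAT-55, edgeR called 0 subunits (0.571% and 3.7% of all genes) and DESeq2 called 0, while 1 was higher at FAT-40 and 1 higher and 8 lower at FAT-55 at unadjusted p under 0.05.

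Liver subunits were called in both directions in the fat comparisons. With all libraries, and both directions counted together, a smaller share of subunits than of all genes was called in each. Without the WPI FAT-55 library that stood apart, the share of subunits was larger than that of all genes in both WPI comparisons. Most called subunits were then lower in all 4 fat comparisons. FAT-55 on CAS lowered 21 of 81 and raised 2 (43.3% of all 15051 genes called, 20.7% lower and 22.6% higher), with a median of -0.09 against 0.00 for all genes. FAT-55 on WPI raised 10 and lowered 4 (26.6% of all genes called, 14.6% higher and 12% lower; median 0.03), a direction that reversed to 4 higher and 21 lower (26.3% of all genes) without 1 WPI FAT-55 library that stood apart. FAT-40 on CAS raised 5 and lowered 4 (30.2%, 15.8% higher and 14.4% lower), and FAT-40 on WPI raised 0 and lowered 3 (6.54%, 2.35% lower). On CAS FAT-55, 8 of 17 ATP synthase subunits fell, among them the c-ring genes Atp5g1, Atp5g2 and Atp5g3 (-0.20, -0.20 and -0.22), as did 6 of 36 in complex I, 1 of 4 in II, 2 of 9 in III and 4 of 15 in IV.

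Ndufs7, the core complex I subunit that holds the last iron-sulfur cluster before ubiquinone (GRCm38 chr10:80249121-80256794, plus strand), fell in all 4 fat comparisons. It had 52.4, 56.1 and 60.9 CPM on CAS FAT-20, 42.6, 44.8 and 54.8 on CAS FAT-40 and 35.6, 43.2 and 50.3 on CAS FAT-55, so that the CAS FAT-20 and FAT-55 ranges did not overlap. On WPI it had 45.5, 58.8 and 71.1 at FAT-20, 40.3, 47.1 and 52.6 at FAT-40 and 37.8, 47.6 and 83.5 at FAT-55. All but 1 of the FAT-55 WPI libraries lay below the FAT-20 median, and that library, the highest at 83.5, is the one that stood apart. The log2 fold changes were -0.35 (SE 0.074, adjusted p = 9.46e-05) and -0.29 on CAS and -0.27 and -0.33 on WPI, for FAT-55 and FAT-40.

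The membrane anchor Sdhd and the catalytic subunit Sdha of complex II moved in opposite directions. Sdhd had 185, 207 and 221 CPM on CAS FAT-20 and 154, 165 and 180 on CAS FAT-55, ranges that did not overlap. Its change was -0.31 (SE 0.0602, adjusted p = 3.39e-05), and it was -0.16 on WPI FAT-55 and -0.15 on CAS FAT-40, both called. Sdha had 506, 526.3 and 597 CPM on CAS FAT-20, 577, 630 and 701 at FAT-40 and 567, 636 and 671 at FAT-55. It rose by 0.22 at CAS FAT-40 and by 0.21 at FAT-55 on CAS (SE 0.047, adjusted p = 0.000165) and 0.22 on WPI (adjusted p = 0.000191), and every FAT-55 library exceeded the FAT-20 median of its protein. The iron-sulfur subunit Sdhb rose at CAS FAT-40 (0.27) and WPI FAT-55 (0.24).

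Uqcrh, the hinge protein that docks cytochrome c on complex III, fell by 0.32 on CAS FAT-55 (106, 127 and 134 CPM against 94.7, 101 and 107), with every FAT-55 library below the FAT-20 median. Ndufa10, an accessory complex I subunit, rose by 0.27 on CAS FAT-55, 0.25 on WPI FAT-55 and 0.25 on CAS FAT-40. Cox6b2 had the largest fold changes of any subunit but very few reads. It was at 0.242, 0.411 and 0.872 CPM on CAS FAT-20 and 0.00, 0.063 and 0.293 on CAS FAT-55, a fitted log2 change of -2.37, and fell likewise by 1.65, 1.76 and 1.68 in WPI FAT-55, CAS FAT-40 and WPI FAT-40. Without the WPI FAT-55 library that stood apart, the fat counts became 2 higher and 30 lower on CAS FAT-55 (45.3% of all genes), 7 and 10 on CAS FAT-40 (32.8%) and 0 and 11 on WPI FAT-40 (8.47%). Ndufs7, Sdhd, Uqcrh and Cox6b2 then fell in all 4 comparisons, with Ndufs7 at -0.36 and Uqcrh at -0.21 on WPI FAT-55. In the same livers the 8 hepatocyte markers summed to medians of 112964, 101820 and 90881 CPM on CAS and 112702, 107829 and 105435 on WPI, in the order of fat. The 7 fat cell markers, 3 of them averaging 1 CPM or more, summed to 34.97, 43.8 and 175 CPM on CAS and 36.6, 22.7 and 56.8 on WPI, and their part in the subunit changes was not tested.

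**Figure D3:**
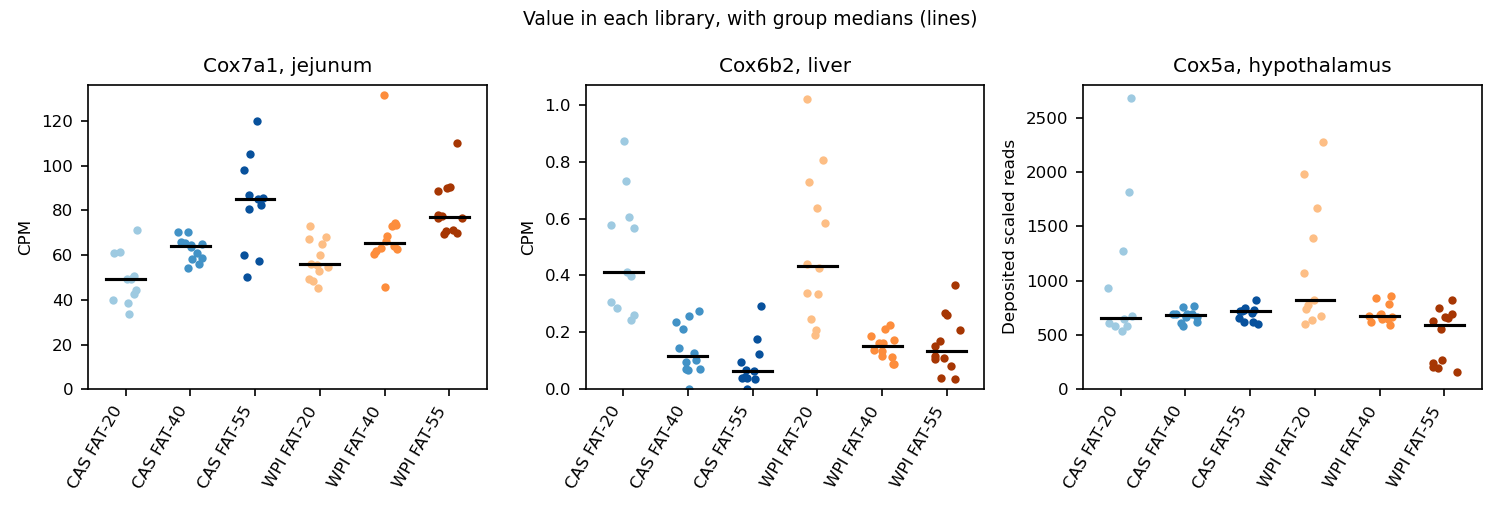
Value of Cox7a1 in jejunum (CPM), Cox6b2 in liver (CPM) and Cox5a in hypothalamus (deposited scaled reads) in every library, by diet, with group medians as lines. Cox7a1 climbs with fat on both proteins, Cox6b2 is lower at FAT-40 and FAT-55 than at FAT-20 in median, and 5 Cox5a libraries on WPI FAT-55 lie between 163 and 266.

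On the highest-fat diet, liver subunit mRNAs were higher on WPI than on CAS with all libraries. Fewer were called, with a smaller median, without the WPI FAT-55 library that stood apart, as given below. At FAT-55, 35 of 81 were higher and 0 lower (14.5% of all genes called, 7.07% higher), with a median of 0.18 against 0.00 for all genes and 79 of 81 positive. The 35 were 13 of 36 in complex I, 1 of 4 in II, 4 of 9 in III, 7 of 15 in IV and 10 of 17 in V. Averaged over fat, with all libraries, 21 were higher and 0 lower (14.7%, 7.1% higher), and 6 on sums by identifier stem (4.05%). At FAT-40, 1 was lower (Ndufs5, an accessory complex I subunit; 8.21% of all genes called, 4.37% lower). That call was lost with median-of-ratios scaling, without a filter and on sums by identifier stem (0 subunits called in each; 0.365% of all genes by stem), and without the library that stood apart 4 were higher and 2 lower (10%). At FAT-20 edgeR and DESeq2 each called 0 (0.512%), with 4 higher at unadjusted p under 0.05.

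Ndufb10, an accessory membrane-arm subunit of complex I, had 67.3, 77.8 and 82.0 CPM on CAS FAT-55 and 73.0, 89.3 and 172 on WPI FAT-55. It was higher on WPI in 11 of 12 libraries relative to the CAS median, by 0.35 (SE 0.078, adjusted p = 0.0013). In the same fit of all libraries, Ndufb5 was higher by 0.28, the core subunit Ndufs3 by 0.28 and Sdhd by 0.27. Uqcrh was higher by 0.30, Cox7c by 0.25 and the gamma subunit Atp5c1 by 0.25. For Ndufb5, Ndufs3, Sdhd, Uqcrh, Cox7c and Atp5c1, all 12 WPI libraries exceeded the CAS median. Among other mitochondrial genes at FAT-55, 8 of 13 mitochondrially encoded mRNAs were higher on WPI (median 0.29, mt-Co1 at 0.29 and mt-Nd6 at 0.39). So were 30 of 77 mitochondrial ribosomal protein genes, where 7.07% of all genes were higher, and 0 of either list were lower. These counts include the WPI FAT-55 library that stood apart and were not made without it. Part of the exons of Ndufb5 (12.3%, with Mrpl47) and Atp5j (12.7%, with Gabpa) overlap another gene, so reads of each pair cannot be told apart there.

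The WPI FAT-55 group holds the liver library that stood apart, whose other short transcripts sat at 0.65 and subunits at 0.82 above the typical library. Without it, 16 of 81 subunits were higher on WPI at FAT-55 and 0 lower (12.3% of all genes), with a median of 0.07. The 16 included Ndufb10 (0.24), Ndufb5 (0.17), Sdhd (0.18) and Uqcrh (0.18). When mice with a shared identifier stem were summed, 1 subunit was called, Atp5l, a membrane subunit of ATP synthase (0.25, edgeR adjusted p = 0.0396; 1.2% of all genes). The response to FAT-55 differed between the proteins for 1 subunit, Ndufb3 (difference 0.28, SE 0.0884, adjusted p = 0.0423; 6.82% of all genes). Ndufb3 had 28.9, 33.9 and 37.8 CPM on CAS FAT-20, 31.5, 34.04 and 39.7 on CAS FAT-55, 30.2, 32.6 and 35.9 on WPI FAT-20 and 33.3, 40.4 and 63.8 on WPI FAT-55. Without the library that stood apart, this difference was 0.21 (adjusted p = 0.0775) and 0 subunits were called by edgeR (5.82%).

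**Figure D4:**
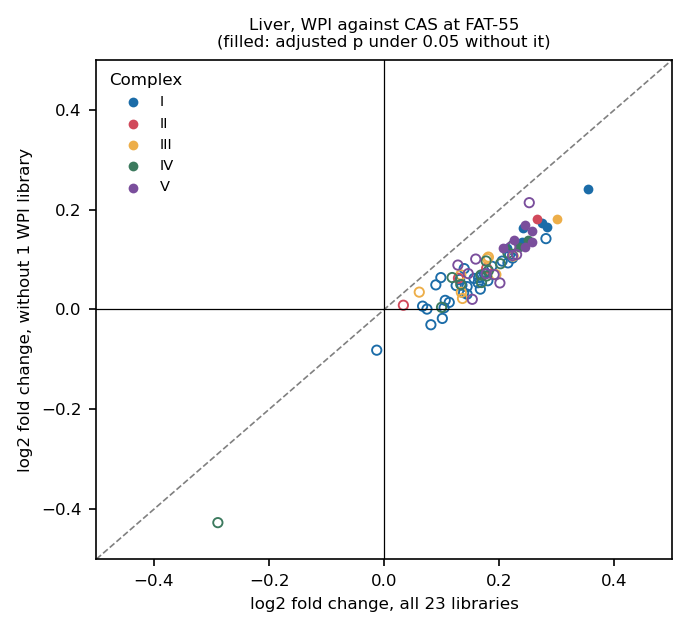
Liver, log2 fold change of each subunit for WPI against CAS at FAT-55 with all libraries (x axis) and without the 1 WPI library that stood apart (y axis), coloured by complex, with filled points for those called without it. Points lie below the dashed line of equality, and 16 are filled against 35 called with all libraries. Cox6b2 lies outside the axes and is not drawn.

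In hypothalamus the subunits were lower on higher fat with all libraries, and the calls depended on the libraries that stood apart. FAT-40 on WPI lowered 69 of 83 and raised 0 (limma on log2 of the deposited scaled reads plus 1; 52.5% of all 14830 genes called, 14.6% lower), with a median of -0.67 against 0.12 for all genes. FAT-55 lowered 3 on CAS (Ndufb4, Sdhc and Sdhd; 2.33%, 1.06% lower) and 4 on WPI (Ndufab1, Uqcrfs1, Cox5a and Atp5k; 35.3%, 5.84% lower), with medians of -0.64 and -0.39 and 0 raised. FAT-40 on CAS called 0 by limma (0.236%) with a median of -0.54, while 58 were lower at unadjusted p under 0.05. On recovered reads from all libraries, edgeR called 54 lower (10.8% of all genes called, both directions together) and DESeq2 58. No share of all genes is given for the unadjusted and DESeq2 counts, so they are not set against a background. Without the 11 libraries that stood apart, FAT-40 on WPI called 0 of 83 (5.89% of all genes) with a median of -0.02, and FAT-55 on CAS called 1, Sdhc (0.303%). FAT-55 on WPI instead went from 4 calls to 8 without them, 6 higher and 2, Cox5a and Uqcrfs1, lower (19.6%). On recovered reads from all libraries, edgeR called 65 lower on CAS FAT-55 (16.7% of all genes) and 25 on WPI FAT-55 (20.8%).

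The spread was widest in the FAT-20 groups. Ndufb6, an accessory complex I subunit, had 290, 358 and 3371 scaled reads on CAS FAT-20, 298, 677 and 2369 on WPI FAT-20 and 301, 351 and 420 on WPI FAT-40. Sdhb had 1651, 3551 and 14466 on WPI FAT-20 and 1678, 1818 and 2209 on WPI FAT-40. The lowest libraries of the groups were alike, and the FAT-20 groups had tails that reached many times higher. In the 11 libraries the other short transcripts sat 0.486 to 1.85 and the subunits 0.614 to 2.48 log2 units above the gene medians, and in the other 56 they spanned -0.21 to 0.27 and -0.33 to 0.48. Across libraries the medians of the subunits and of the other short transcripts had a Pearson r of 0.996 in hypothalamus (n = 67) and 0.949 without the 11 (n = 56), 0.893 in liver (n = 70) and 0.795 in jejunum (n = 70). The points share library and depth, so these are descriptions. The 5 red blood cell markers, among them globin mRNAs, summed to up to 3934 CPM on CAS FAT-20 and 2297 on WPI FAT-20, against at most 955 on CAS FAT-40 and 840 on WPI FAT-40, and their part in these results was not tested.

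**Figure D5:**
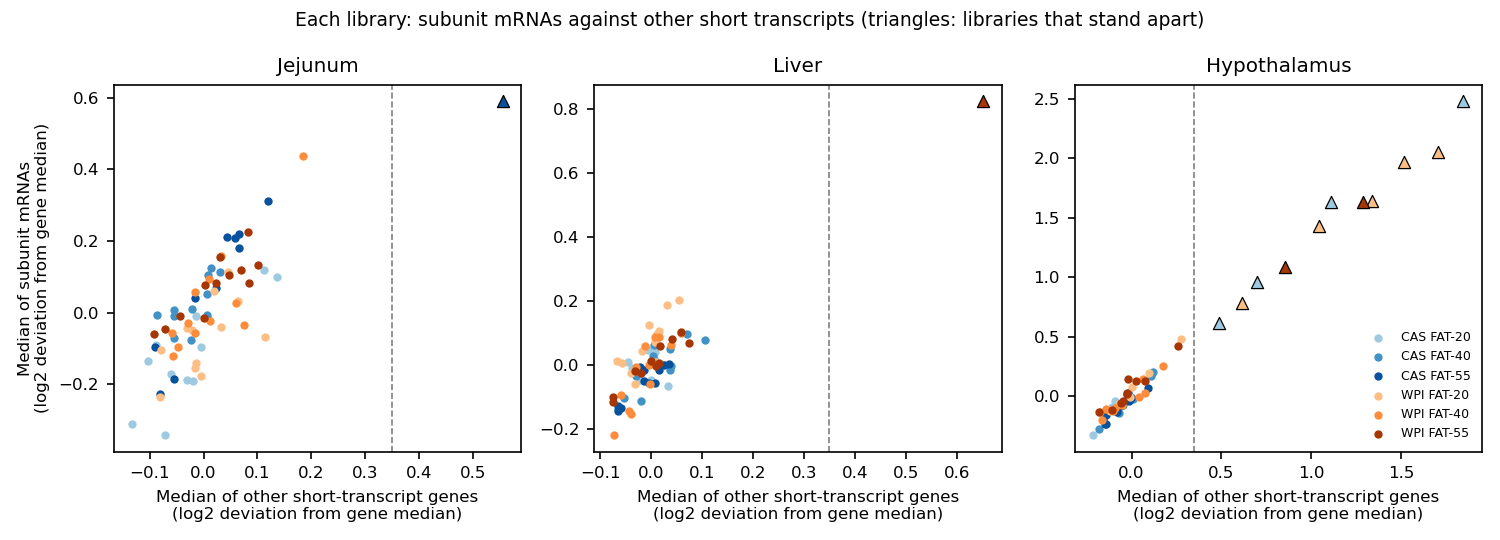
Median log2 deviation of the subunit mRNAs (y axis) against that of other short-transcript genes (x axis) in each library, coloured by diet, with triangles for libraries past the dashed line at 0.35. The hypothalamus holds 11 triangles, reaching 1.85 and 2.48, and jejunum and liver hold 1 each.

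Sdhc, a membrane anchor of complex II (GRCm38 chr1:171127165-171150603, minus strand), was lower on CAS FAT-55 than on CAS FAT-20 with and without those libraries. It had 1094, 1371 and 3271 scaled reads on CAS FAT-20, 1039, 1182 and 1424 on CAS FAT-40, 842, 988 and 1108 on CAS FAT-55, and 1114, 1253 and 2345 on WPI FAT-55. Every CAS FAT-55 library lay below the CAS FAT-20 median, and the CAS and WPI FAT-55 ranges did not overlap. The change on CAS was -0.68 (SE 0.141, adjusted p = 0.00762) and, without the 11 libraries, -0.38 (adjusted p = 0.000314). WPI against CAS at FAT-55 gave 0.47 (adjusted p = 0.0233) and 0.34 (adjusted p = 3.01e-06) without them. Neither call held on means by identifier stem, where Sdhc had -0.69 (limma adjusted p = 0.344; 0.0472% of all genes called) and 0.46 (adjusted p = 0.465).

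Protein source at FAT-55 called 2 hypothalamic subunits higher on WPI, Sdhc and Cox6a2, and 1 lower, Cox5a (limma; 5.92% of all genes called, 2.05% higher and 3.87% lower), while edgeR (5.21% of all genes) and DESeq2 on recovered reads each called 2 higher and 0 lower. Cox6a2, the heart and skeletal muscle form, had 24.2, 55.5 and 96.1 scaled reads on CAS FAT-55 and 63.2, 113 and 172 on WPI FAT-55. All 12 WPI libraries exceeded the CAS median, with a log2 change of 1.02 (SE 0.26, adjusted p = 0.00735), and on means by identifier stem it had 0.96 and was not called (limma adjusted p = 0.14). Averaged over fat it was the only subunit called (0.54, adjusted p = 0.038; 2.15% of all genes called, 0.324% higher). That call was lost with edgeR on recovered reads (0 subunits called, 2.27% of all genes), without a filter on low values (0) and on means by identifier stem (0; 0.398%). Without the 11 libraries 23 subunits were higher averaged over fat (5.68%), and Cox6a2 itself had 0.48 (limma adjusted p = 0.0503). At FAT-20 and FAT-40 limma, edgeR and DESeq2 each called 0 (1.01% and 0% of all genes by limma, 0.0404% and 0% by edgeR), with 0 at unadjusted p under 0.05. Without the libraries that stood apart, 53 subunits were higher on WPI at FAT-55 and 2, Cox5a and Uqcrfs1, lower (20.1% of all genes), with a median of 0.22. The count thus rose from 3 to 55 when the 2 WPI FAT-55 and 9 FAT-20 libraries were left out. In the libraries kept, other short transcripts had medians of -0.079 on CAS FAT-55 and -0.026 on WPI FAT-55, reaching 0.089 and 0.259. The subunit medians reached 0.066 and 0.424, and the part of this remaining difference in the calls was not tested. Means by identifier stem called 0 in limma (1.71% of all genes). Hypothalamic neuron markers summed to a median of 918 CPM on CAS FAT-55 and 675 on WPI FAT-55, and thalamus markers to 1056 and 1324, and their part in the difference was not tested. The difference of the FAT-55 response between the proteins was called for 0 of 83 by limma (3.5% of all genes), with 3 higher and 1 lower at unadjusted p under 0.05 and 0 by edgeR (2.49%) and DESeq2. Without the 11 libraries it was called for 3 (9.06%), among them Cox5a (-1.05, adjusted p = 0.013) and Sdhc (0.48, adjusted p = 0.000203).

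Cox5a (GRCm38 chr9:57521274-57532426, plus strand), a complex IV subunit, and the Rieske protein Uqcrfs1 (chr13:30540308-30545362, minus strand) were low in the same WPI FAT-55 mice. Cox5a had 163 to 266 scaled reads in 5 of 12 libraries and 553 to 819 in the other 7, with no value between. The same 5 libraries had 900.4 to 1209 scaled reads of Uqcrfs1, against 1501 to 2322 in the other 7, so the libraries fell into the same sets for both genes. The 5 libraries carry 2 identifier stems: all 3 mice of 1 stem and 2 of 3 of another. How many other genes were low in the same 5 libraries was not counted, so the split is not shown to be particular to these subunits. In the same 5 mice Cox5a was at 136 to 152 CPM in jejunum (123 to 161 in the other 7) and at 45.0 to 54.1 CPM in liver (44.3 to 72.1 in the other 7), inside the range of the others. Cox5a was called lower at FAT-55 on WPI (-1.30, SE 0.233, adjusted p = 2.69e-05, and -0.85 without the 11 libraries) and lower on WPI than on CAS at FAT-55 (-0.74, adjusted p = 0.0428). With all libraries, 5.84% and 3.87% of all genes were called lower in these comparisons. By identifier stem, limma gave -1.27 for the fat comparison (adjusted p = 0.0479). Part of the Cox5a exons (12.8%) overlaps the annotated gene Gm26631, and strand setting is not given in the sources used here, so reads of the pair cannot be told apart there.

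The subunits varied together over libraries once diet means were removed. The median subunit had a Pearson r of 0.859 with the mean of the others in jejunum (n = 70), 0.888 in liver (n = 70) and 0.98 in hypothalamus (n = 67). Ndufb2, Ndufa4l2 and Cox6b2 were among the least alike in jejunum and liver, from -0.02 to 0.21. Outside the genes taken by symbol, the most similar patterns in jejunum were those of Usmg5 (0.906), Bsg (0.90) and Cisd1 (0.89). Usmg5 is itself a protein of ATP synthase, whose symbol the rule did not match. Bsg is the chaperone of lactate transporters, and Cisd1 an iron-sulfur protein of the outer mitochondrial membrane. In liver they were 2410015M20Rik (0.913), Park7 (0.909) and Timm13 (0.908). In hypothalamus they were Prdx5 (0.995) and the ribosomal protein genes Rpl28 and Rps14 (0.994 each). These are correlations over libraries that share depth and composition, and no p is attached to them.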

How the data were processed

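RNA-seq of jejunum, liver and hypothalamus was taken from the deposited tables. The submitters' processing notes name STAR, the GRCm38 build and DESeq2 1.24.0, besides FastQC, cutadapt and Trim Galore 0.61, with no order; the annotation release and strand setting are not given in the sources used here. The deposited jejunum and liver values are raw read counts per gene; entries that name no gene held 23.0% and 23.8% and were left out. The deposited hypothalamus signal was whole reads divided by 1 size factor per library, and 100% of the recovered reads were whole within 0.05.

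Counts were tested with edgeR 4.0.16 (TMM scaling, quasi-likelihood test, minimum count 10, minimum total 15) and the hypothalamus with limma 3.58.1 on log2(value + 1) for genes at 10 or more in at least 10 libraries, in R 4.3.3. Each fit held the 6 diets of a tissue, and p-values were Benjamini-Hochberg adjusted over all genes tested. Shares of all genes are those of edgeR or limma, and none is given for counts at unadjusted p or by DESeq2. DESeq2 1.42.0, other scaling, no filter, other pseudocounts, sums or means by identifier stem, a GC and length correction, marker covariates and leaving out libraries that stood apart were alternatives. The fits were tested on simulated data. Levels per kilobase used the length of each gene's principal transcript in GENCODE M21. CPM are gene reads scaled to a common library size with TMM factors. Named genes were, per tissue and complex, up to 3 with the smallest adjusted p in the comparison with most calls, those called against the majority, the highest and lowest by level, all isoform families, and up to 2 of each pathway list; others were added after their values were seen. The members and lists were chosen with earlier results of these data known. Some results for single genes are not reported here.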

Additional observations from a re-analysis of the deposited data

Results flagged for a closer look

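In liver, the response of Ndufb3 to FAT-55 was larger on WPI than on CAS by 0.28 on the log2 scale, by edgeR's test of the difference itself, and this call was lost without the WPI FAT-55 library that stood apart.

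In hypothalamus, the highest of the 10 CAS FAT-20 libraries lay farther from the next than Dixon's 95% limit allows for 20 named subunits. This was the only group of 10 or fewer libraries, so no other diet or tissue was tested. Of 53 named subunits tested in it, 20 met the limit, and the subunits share libraries, so they are not independent. The group holds 4 of the 11 libraries that stood apart. In those 4 the other short transcripts sat up to 1.85 and the subunits up to 2.48 log2 units above the gene medians. High values were thus already known in this group, and no conclusion is drawn from the count. The highest library had, in scaled reads, 45944 for Atp5b, 13280.5 for Atp5c1, 14281 for Atp5f1, 15058 for Atp5g3, 4593 for Atp5k, 367 for Atp5o and 474 for Atp5s in ATP synthase. In complex IV it had 26845 for Cox4i1, 138 for Cox7a1 and 18454 for Cox7a2l. In complex I it had 7791 for Ndufa10, 10536.5 for Ndufb10, 8073 for Ndufb5, 3371 for Ndufb6 and 8857 for Ndufs7. In complexes II and III it had 24536 for Sdhb, 8006 for Uqcr10, 2972 for Uqcrb, 13127 for Uqcrc2 and 4943 for Uqcrfs1.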

How the results depend on the processing

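No paired analysis was possible because the diet groups compared hold different mice and share no replicate numbers in the labels; levels between tissues, which share mice, were described without a test. Leaving out the libraries that stood apart was chosen after seeing the data.

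Counts of called subunits moved as follows, and the cause was not tested. For GC and length removal, no filter, DESeq2 and median-of-ratios scaling, no share of all genes called is given. Those counts therefore do not show whether the subunits moved more than other genes. In jejunum, marker covariates left 7 of 74 on CAS FAT-55, and 0 on WPI FAT-55, CAS FAT-40 and WPI FAT-40. Identifier stems gave 15 on WPI FAT-55, 2 on CAS FAT-40 and 1 on WPI FAT-40. Without a filter CAS FAT-40 had 13 and WPI FAT-40 had 9. With GC and length removed they had 38 and 26. DESeq2 gave 27 and median-of-ratios scaling 25 on WPI FAT-40. For protein averaged over fat, stems and covariates gave 1 each and GC and length 4; at FAT-20 stems gave 0 and GC and length 3. Sdha on WPI FAT-40 became -0.00852 with the covariates.

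In liver, GC and length removal gave 39 on CAS FAT-55, 16 on CAS FAT-40 and 4 for the difference of responses. Stems gave 6 on WPI FAT-55, 1 on WPI FAT-40, 6 for protein averaged over fat, 0 at FAT-40, 1 at FAT-55 and 0 for the difference. Without the library that stood apart, WPI FAT-55 had 25, CAS FAT-40 had 17, WPI FAT-40 had 11, and protein had 1 at FAT-20, 6 at FAT-40 and 16 at FAT-55, with 0 for the difference. For protein at FAT-40, DESeq2 gave 2, median-of-ratios 0 and no filter 0; no filter gave 0 for the difference.

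In hypothalamus, edgeR on recovered reads gave 65 on CAS FAT-55, 25 on WPI FAT-55, 54 on CAS FAT-40 and 0 for protein averaged over fat, and DESeq2 gave 68, 45 and 58 in the fat comparisons. No filter gave 1 on CAS FAT-55 and 0 for protein averaged over fat. Stems gave 0 on CAS FAT-55, 1 on WPI FAT-55, and 0 on WPI FAT-40, for protein averaged over fat and at FAT-55. GC and length removal gave 35, 10 and 4 on CAS FAT-55, WPI FAT-55 and CAS FAT-40, 6 for protein averaged over fat, 10 at FAT-55 and 2 for the difference. Without the 11 libraries the counts were 1 on CAS FAT-55, 8 on WPI FAT-55, 0 on WPI FAT-40, 23 for protein averaged over fat, 55 at FAT-55 and 3 for the difference. On WPI FAT-40, 15 named subunits then turned positive: Ndufa10 0.0515, Ndufb3 0.0492, Ndufs3 0.00678, Sdhc 0.0624, Sdhd 0.0422, Uqcr11 0.0109, Uqcrc2 0.0273, Uqcrfs1 0.0419, Cox6b1 0.0404, Cox7a2l 0.00456, Cox8a 0.0453, Atp5b 0.0453, Atp5g1 0.0139, Atp5g2 0.0578 and Atp5g3 0.033. The other counts recomputed stayed within 1.5 times the reported count.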
